A study of Mus musculus with 16 samples.

Results

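The lysyl oxidase family of the mouse consists of Lox, Loxl1, Loxl2, Loxl3 and Loxl4, and its 5 genes were taken by gene name from the 54532 genes of an aortic RNA-seq table. All 5 were among the 15007 genes tested, those with a mean of at least 0.5 FPKM (fragments scaled by transcript length and library size) over the libraries. The table held 16 libraries of aortas stripped of adventitia, the outer layer of the vessel wall, from male Apoe-/- mice of strain C57BL/6j aged 8 to 12 weeks. Saline was infused in 8 of them and Ang II (angiotensin II, a peptide that constricts vessels and raises blood pressure) at 1000 ng/kg/min in the other 8, by an implanted osmotic pump for 7 days. Both groups lacked Apoe, which makes mice prone to high cholesterol and atherosclerosis, so the comparison is of Ang II within this genotype. Library names in both groups begin with WT, a prefix whose meaning was not examined here. The labels do not tie the libraries to single mice, and p-values measure the spread between these libraries.

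Lysyl oxidases are secreted enzymes that hold copper and a quinone cofactor made from their own residues. They oxidise lysine side chains of elastin and collagens to aldehydes, which then condense into the cross-links that make these fibres insoluble and strong. Lox and Loxl1 are made as proenzymes with a propeptide that Bmp1-type proteases remove, whereas Loxl2, Loxl3 and Loxl4 carry scavenger receptor cysteine-rich domains in front of the catalytic domain. Loss of Lox in mice leads to aortic aneurysm and rupture around birth, and loss of Loxl1 disturbs elastic fibre upkeep in adult tissues.

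What the 5 genes share is the catalytic domain, whose copper-binding stretch is spelled by 13 codons and spans an exon junction in each. The stretch was found in the coding sequence by its 4 histidines, so likeness at those codons is in part set by the search. It is printed for 4 members to show how alike they are in the part that makes them oxidases. It runs 5′ to 3′ on the coding strand, with the histidine codons in capitals.
Loxl1: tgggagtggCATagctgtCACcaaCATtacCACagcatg
Loxl2: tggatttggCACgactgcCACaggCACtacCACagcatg
Loxl3: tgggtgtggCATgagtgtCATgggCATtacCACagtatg
Loxl4: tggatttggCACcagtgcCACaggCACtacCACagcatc
In GRCm38 these codons lie within chr9:58293714-58294381 (minus strand) for Loxl1, chr14:69682316-69689043 (plus strand) for Loxl2, chr6:83049995-83050131 (plus strand) for Loxl3 and chr19:42598801-42599899 (minus strand) for Loxl4. Each span includes an intron. Loxl2 and Loxl4 had 36 of the 39 bases in common, and the other pairs of these 4 genes 26 to 30. Outside such short stretches the messages differed, and the longest run of identical bases between transcripts of any 2 members was 32, for Lox and Loxl1.

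Ang II aortas held more message of all 5 lysyl oxidase genes, in very unequal amounts. Lox rose 6.40-fold, Loxl2 5.67-fold and Loxl4 3.76-fold in mean FPKM, and for these 3 genes each Ang II library lay above each saline library. Loxl1 rose 1.39-fold and Loxl3 1.35-fold, with overlapping groups. All 5 passed an adjusted p of 0.05 in limma, against 9.54% of all tested genes called higher, 24.9% called lower and 34.5% called in either direction. Complete separation upward, seen for 3 of the 5, was found for 2.74% of tested genes, and complete separation downward, seen for 0 of the 5, for 5.62%. With libraries scaled by their median ratio the counts over all genes were 2235 higher and 2113 lower, against 1431 and 3741 on the deposited scale. The log2 fold changes below are on the deposited scale, where the median over all tested genes was -0.12. A log2 fold change at least as large as that of Loxl4 together with a call was found for 0.78%. In these bulk samples a change in the number of cells of a type and a change in RNA per cell cannot be told apart.

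Lox encodes the founding member, an oxidase of both elastin and collagen (ENSMUSG00000024529, chr18:52516069-52529867, minus strand, GRCm38). In saline aortas its level ran from 10.7 FPKM through a median of 22.7 to 45.6. In Ang II aortas it ran from 110 through 157 to 218. The lowest Ang II library was thus more than double the highest saline library, and Saline 8 had the lowest level. The means were 25.0 ± 10.8 and 160 ± 32.9 FPKM (SD, n = 8 each). The log2 fold change was 2.71 (SE 0.22, limma adjusted p = 1.92e-07), the 12th largest among the 15007 genes tested. The two-sided exact permutation p was 0.000155, the smallest that 8 against 8 libraries can give. These values rest on 645 to 3167 reads in saline and 7037 to 17595 reads in Ang II libraries.

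Loxl2, which acts on type IV collagen of basement membranes as well as on elastin, showed the same separation (ENSMUSG00000034205, chr14:69609068-69695834, plus strand). Saline libraries ran from 3.12 FPKM through 6.99 to 11.6, and Ang II libraries from 28.0 through 40.2 to 47.9. Again no library of either group fell into the range of the other. The means were 7.07 ± 2.42 and 40.1 ± 6.49 FPKM (SD, n = 8 each). The log2 fold change of 2.39 (SE 0.18, limma adjusted p = 5.69e-08) ranked 18th among all tested genes, with an exact permutation p of 0.000155.

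Loxl4 was the least abundant member in both groups (ENSMUSG00000025185, chr19:42593982-42612813, minus strand). Its saline values ran from 0.578 FPKM through 2.30 to 4.29, and its Ang II values from 4.65 through 8.43 to 12.0. The groups did not overlap, although the gap between 4.29 in Saline 5 and 4.65 in Ang II 2 was narrow. The means were 2.23 ± 1.38 and 8.38 ± 2.15 FPKM (SD, n = 8 each), and the log2 fold change was 1.63 (SE 0.25, limma adjusted p = 0.000126). Only 17 to 149 reads per saline library and 145 to 429 per Ang II library lie behind these values. Because the level is low, the size depended on the added constant: the log2 fold change was 2.11 with a pseudocount of 0.1 in place of 1, and 2.14 on read counts recovered from the FPKM. Without Saline 2, Saline 7 and Saline 8, where Loxl4 was at 1.04 FPKM or below, the log2 fold change was 1.18 (limma adjusted p = 0.000196).

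Loxl1, the oxidase tied to elastic fibres through fibulin-5, had the highest mean level in saline aortas and rose modestly (ENSMUSG00000032334, chr9:58287738-58313186, minus strand). Saline values ran from 80.1 FPKM through 107 to 180, and Ang II values from 124 through 159 to 196. Of the 8 Ang II libraries, 2 exceeded the highest saline library, Saline 7, and 5 saline libraries lay below every Ang II library. The means were 117 ± 33.0 and 163 ± 24.2 FPKM (SD, n = 8 each). The log2 fold change was 0.50 (SE 0.15, limma adjusted p = 0.0162, exact permutation p = 0.00746). With a score of adipocyte markers in the model the value was 0.45 and the call was lost (limma adjusted p = 0.0646).

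Loxl3, a member with scavenger receptor domains like Loxl2 and Loxl4, showed an increase close in size to that of Loxl1 (ENSMUSG00000000693, chr6:83034173-83052562, plus strand). Saline values ran from 49.8 FPKM through 56.6 to 134, and Ang II values from 75.0 through 89.1 to 126. Saline 8, at 134 FPKM, was the highest of all 16 libraries, so that no Ang II library exceeded the saline range, while 6 saline libraries lay below every Ang II library. The means were 69.0 ± 27.5 and 93.5 ± 16.5 FPKM (SD, n = 8 each), and the log2 fold change was 0.49 (SE 0.17, limma adjusted p = 0.0366, exact permutation p = 0.0202). Saline 8 also had the highest sum of adipocyte markers, 261 FPKM. The next highest sums were 214 FPKM in Saline 6 and 182 FPKM in Saline 2, with Loxl3 at 55.9 and 76.3 FPKM. A link between the sums and Loxl3 was not tested. With an adipocyte score in the model the log2 fold change of Loxl3 was 0.59 (limma adjusted p = 0.0290). Without Saline 8 it was 0.63 (limma adjusted p = 0.000671). Leaving out any one of Saline 1, 3, 4, 5 or 6 or of Ang II 2, 3, 6 or 7 moved the adjusted p past the threshold, to at most 0.0733, with log2 fold changes of 0.42 to 0.49. Of the Loxl3 exon bases, 11.6% overlap the gene Htra2 on the opposite strand, and whether counting used strand is not given in the sources used here. Htra2 itself stood at 23.0 ± 3.12 and 23.9 ± 4.24 FPKM (log2 fold change 0.04, limma adjusted p = 0.785).

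**Figure D1:**
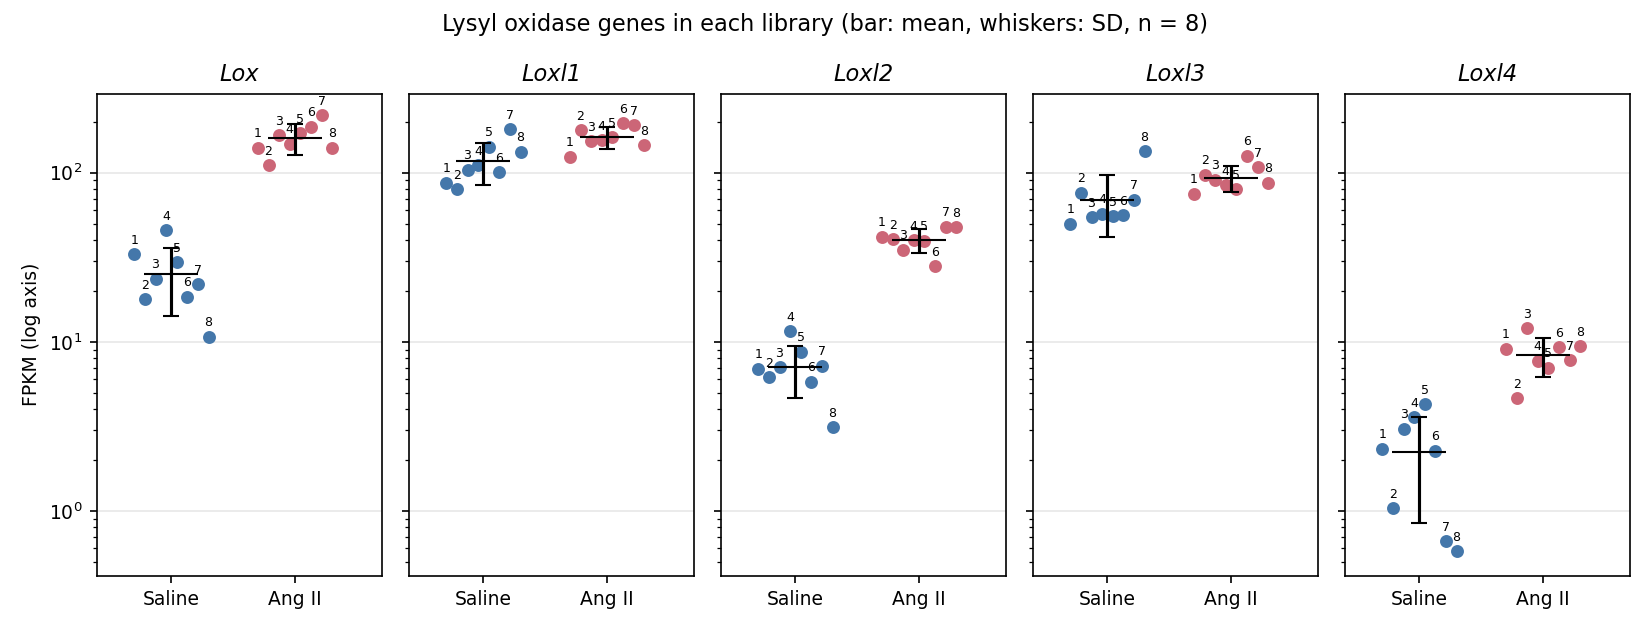
FPKM of each lysyl oxidase gene (log axis) in the 8 saline and 8 Ang II libraries, one point per library with its replicate number, and the group mean (bar) and SD (whiskers). Lox, Loxl2 and Loxl4 show a gap between the groups, whereas Loxl1 and Loxl3 overlap.

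Relative to the mean, the spread between libraries was smaller with Ang II for each of the 5 genes. The SD itself was larger with Ang II for Lox, Loxl2 and Loxl4. The coefficient of variation (SD over mean) of Lox was 43.1% in saline and 20.5% in Ang II libraries, and that of Loxl1 was 28.2% and 14.8%. These differences in spread were not tested. Saline 2, Saline 7 and Saline 8 stood apart from the other libraries along the leading principal component of all tested genes, which held 46.9% of the variance. Without these 3 libraries the log2 fold changes were 2.42 for Lox, 0.58 for Loxl1, 2.20 for Loxl2 and 0.75 for Loxl3, all called.

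Because FPKM is scaled by transcript length, levels can be compared between genes. In saline aortas the order was Loxl1, Loxl3, Lox, Loxl2 and Loxl4, and each neighbouring pair differed within libraries (two-sided exact permutation tests by sign flips, adjusted p of 0.0104 to 0.0192 over 16 such tests). In Ang II aortas Lox drew level with Loxl1. Their means were 160 and 163 FPKM, Loxl1 was higher in 4 of 8 libraries, and the adjusted exact p was 0.891. Below this pair the order was again Loxl3, Loxl2 and Loxl4 (adjusted exact p of 0.0104 for each step).

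The order depends in part on the length used for each gene. The FPKM of Loxl1, Loxl2, Loxl3 and Loxl4 gave whole reads with the mean length of their annotated transcripts, which for Loxl3 (1808 bases) and Loxl4 (1974 bases) is less than the length of their joined exons (4603 and 4213 bases). For Lox they did so at 4036 bases, shorter than the annotated transcripts (4468 and 4741 bases) and their mean (4604 bases), so its level is set higher than that mean would give. With joined exon lengths, Loxl1 stayed highest and was above Lox in 8 of 8 Ang II libraries (163 and 135, adjusted exact p = 0.0104). On that scale Loxl3 and Lox were not separated in saline (27.1 and 21.2, Loxl3 higher in 5 of 8 libraries, adjusted exact p = 0.367). Loxl3 and Loxl2 were not separated in Ang II libraries (36.7 and 31.0, Loxl3 higher in 6 of 8, adjusted exact p = 0.116). Fold changes of a gene's mean FPKM between groups are not touched by this choice. Log2 fold changes and ratios with the added 1 do depend on it, most where levels are low. Loxl4 had means of 1.04 FPKM in saline and 3.93 with Ang II on joined exon lengths. Its log2 fold change was not refitted on that scale.

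The make-up of the family's message shifted toward Lox and Loxl2. Summed over the 5 genes, saline aortas held 221 ± 43.2 FPKM and Ang II aortas 465 ± 62.0 (SD, n = 8 each), with ranges of 179 to 281 and 391 to 573 that did not overlap. Lox made up 11.8% of the sum on average in saline (3.81% to 19.9%) and 34.3% with Ang II (25.6% to 38.1%). The share of Loxl2 went from 3.31% to 8.77% and that of Loxl4 from 1.06% to 1.82%. In turn Loxl1 went from 52.7% to 35.1% and Loxl3 from 31.2% to 20.1%. With joined exon lengths the mean share of Lox was 12.7% in saline and 36.4% with Ang II, and that of Loxl2 3.26% and 8.52%. On that scale Loxl1 held 67.4% and 44.1%, Loxl3 15.99% and 9.92%, and Loxl4 0.631% and 1.08%, so the shares of Loxl3 and Loxl4 depend on the length used while the direction of each did not change. Shares sum to the whole, so they cannot move independently, and they are given as a description.

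**Figure D2:**
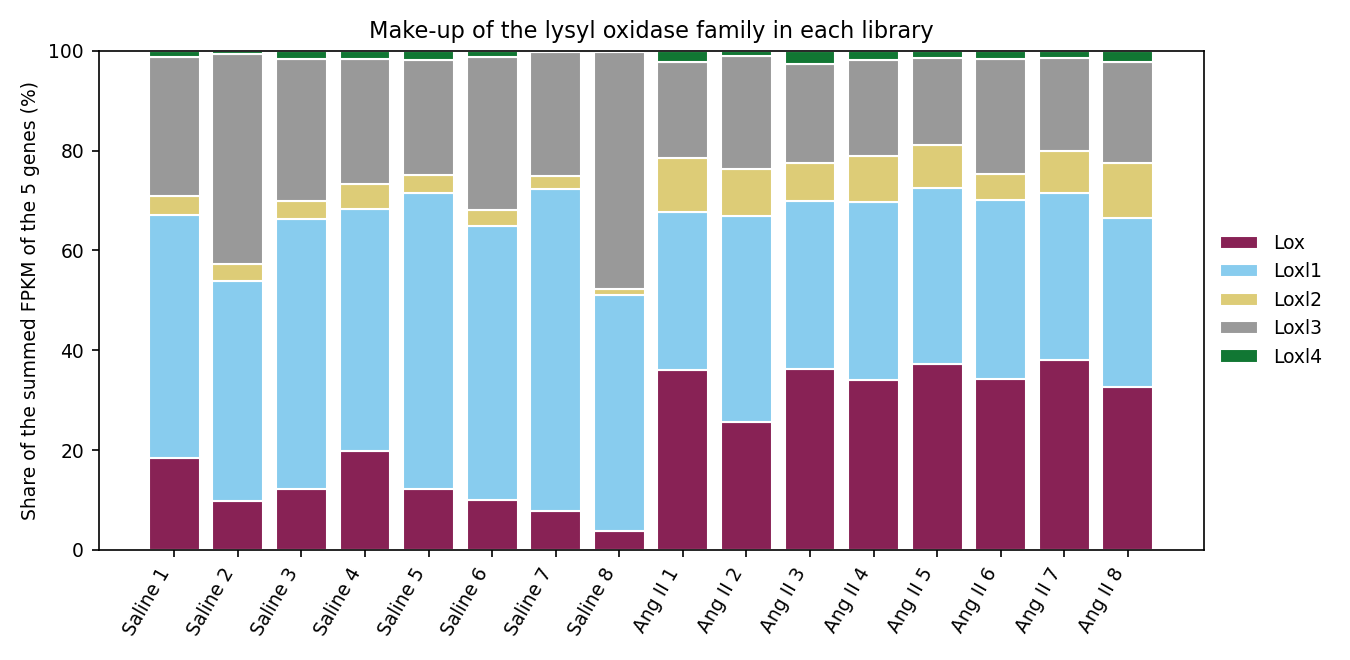
Stacked bars of the share (percent) of the summed family FPKM held by each lysyl oxidase gene, one bar per library. Lox holds 3.81% to 19.9% in saline and 25.6% to 38.1% in Ang II libraries, and the Loxl3 share is largest in Saline 8.

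Whether members changed by different amounts was tested with log2 ratios within each library, as differences of log2(FPKM + 1), on which the scaling of a library acts through the added 1 alone. The 10 pairs of members and 15 ratios to matrix substrates formed one family of 25 exact permutation tests. The ratios of 4 pairs separated the groups completely, each with an adjusted p of 0.000432. They were Lox to Loxl1 (Ang II minus saline 2.21, SE 0.28), Lox to Loxl3 (2.23, SE 0.37), Loxl2 to Loxl3 (1.90, SE 0.34) and Loxl1 to Loxl2 (-1.89, SE 0.25). Both Lox and Loxl2 thus gained on Loxl1 and on Loxl3.

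Loxl4 lay between these 2 sets. It gained on Loxl1 (Loxl1 to Loxl4 -1.13, SE 0.34, adjusted exact p = 0.00305) and on Loxl3 (-1.14, SE 0.41, adjusted exact p = 0.0119), and Lox gained on it (1.08, SE 0.20, adjusted exact p = 0.000897). Loxl2 also gained on Loxl4 (0.76, SE 0.24, adjusted exact p = 0.0129). With a pseudocount of 0.1 the calls of Lox and Loxl2 over Loxl4 were lost, at 0.66 and 0.44. Without Saline 2, 7 and 8 the Loxl3 to Loxl4 difference was -0.43 and not called. Within the sets no difference was detected. Lox against Loxl2 differed by 0.32 (SE 0.17, adjusted exact p = 0.0943), and the test passed when Saline 1 or Ang II 2 was left out (0.39 and 0.40). Loxl1 against Loxl3 differed by 0.02 (SE 0.19, adjusted exact p = 0.911).

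The oxidases were next set against the messages of their substrates. Eln (elastin) rose from 1600 ± 905 to 10799 ± 3463 FPKM, a log2 fold change of 2.84 (SE 0.28, limma adjusted p = 1.33e-06). Col1a1 and Col3a1, chains of the fibrillar collagens I and III, rose by 2.11 and 1.43 on the log2 scale. Relative to Eln, Lox changed by -0.13 (SE 0.27, adjusted exact p = 0.670) and Loxl2 by -0.45 (SE 0.31, adjusted exact p = 0.198), neither past the threshold. Loxl1 and Loxl3 fell against Eln by 2.33 and 2.35 on the log2 scale, with no overlap between groups (adjusted exact p = 0.000432 each). Loxl4 fell against Eln by 1.21 (SE 0.39, adjusted exact p = 0.0139), a call lost with a pseudocount of 0.1.

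Against the collagens the picture was graded. Lox gained 1.29 over Col3a1 (SE 0.17, adjusted exact p = 0.000432, no overlap), and Loxl2 gained 0.96 (SE 0.14, adjusted exact p = 0.000706). Over Col1a1 the differences were 0.61 for Lox (SE 0.28, adjusted exact p = 0.0736) and 0.28 for Loxl2 (SE 0.27, adjusted exact p = 0.353). The Lox to Col1a1 test passed when Saline 1, Saline 4, Ang II 2 or Ang II 6 was left out. Loxl1 and Loxl3 fell against Col1a1 by 1.60 and 1.62 and against Col3a1 by 0.92 and 0.94, all past the threshold. Loxl4 differed by -0.47 against Col1a1 (SE 0.33, adjusted exact p = 0.198). This difference was -0.83 and passed the test without Saline 7 and Saline 8, but was 0.00032 with a pseudocount of 0.1. Against Col3a1 Loxl4 differed by 0.21 (SE 0.23, adjusted exact p = 0.416).

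**Figure D3:**
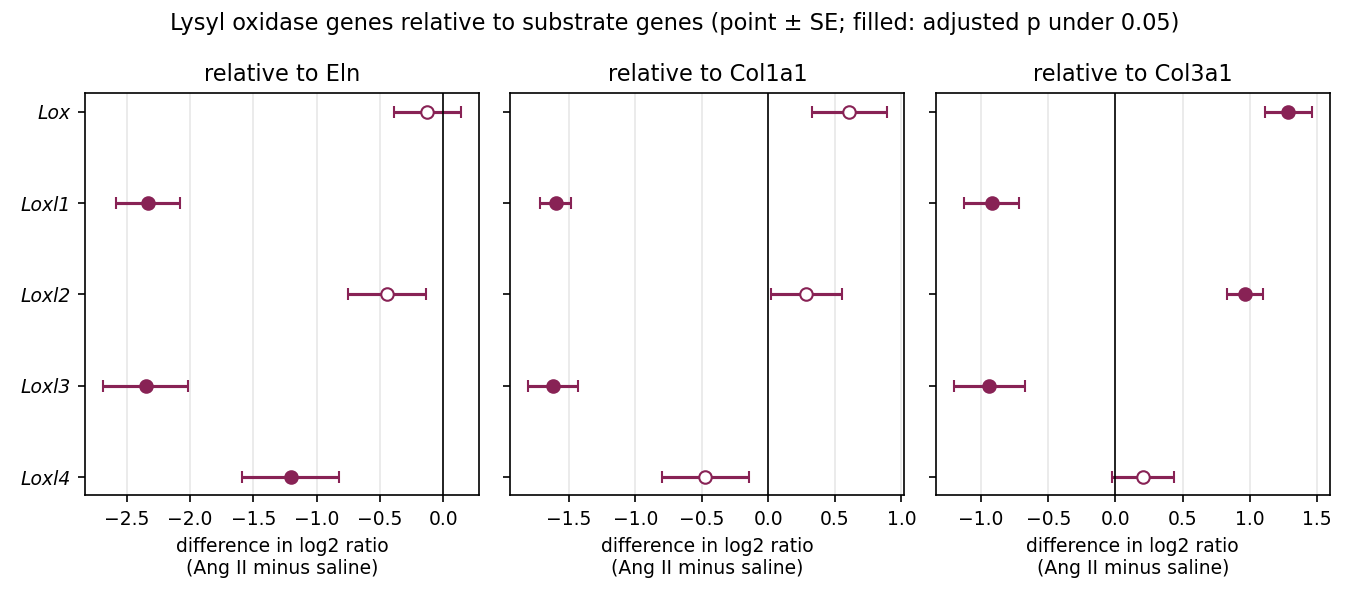
Difference between groups (Ang II minus saline) in the log2 ratio of each lysyl oxidase gene to Eln, Col1a1 and Col3a1, as points with standard errors, filled for an adjusted p under 0.05. Loxl1 and Loxl3 lie left of 0 in all 3 panels, while Lox and Loxl2 lie right of 0 against Col3a1 and are not called against Eln or Col1a1.

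Libraries within a group were next compared for members that varied together. Over 20 relations (10 pairs in 2 groups, n = 8 libraries each, 40 p-values adjusted together) none passed an adjusted p of 0.05. The closest was Lox with Loxl2 in saline, with a Pearson r of 0.936 (exact permutation p = 0.00174, adjusted p = 0.0694) and a Spearman rho of 0.810 (exact permutation p = 0.0218, adjusted p = 0.144). Without the 2 libraries farthest from the median Lox level r was 0.702. In Ang II libraries the same pair had an r of -0.15, which was -0.879 without the 2 farthest, and the difference between the groups was not tested. Next came Loxl1 with Loxl3 in Ang II libraries (r = 0.875, exact permutation p = 0.00471, adjusted p = 0.0942, and rho = 0.786, exact permutation p = 0.0279, adjusted p = 0.144), with r of 0.774 without the 2 farthest. The most negative value was that of Lox with Loxl3 in saline (r = -0.794, exact permutation p = 0.0157, adjusted p = 0.144, and rho = -0.690, exact permutation p = 0.0694, adjusted p = 0.214), with r of -0.704 without the 2 farthest.

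Outside the family, the genes most like each member were those with the highest Pearson r of deviations from the group mean over the 16 libraries, among 11858 genes. For Lox they were Serpinb6b (0.899), Lrrc8c (0.887) and Sema6d (0.870), and for Loxl2 Hebp2 (0.841), Cmpk1 (0.836) and Cfl2 (0.836). For Loxl1 they were Chst12 (0.905), Shb (0.888) and Ptgis (0.883), for Loxl3 Ehmt2 (0.964), Syde1 (0.955) and Vps52 (0.954), and for Loxl4 Gspt1 (0.958), Prkaa1 (0.949) and Edem1 (0.948). These values describe variation around the group means, and the points share library, depth and the deviation of Saline 2, 7 and 8. The genes most like Loxl3 moved the other way between groups: Ehmt2 fell by 0.60, Vps52 by 0.60 and Syde1 by 0.30 on the log2 scale (limma adjusted p of 0.0236, 0.0101 and 0.0338).

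Counts among other amine oxidases were near those of all tested genes (9.54% called higher and 24.9% lower). Of 6 tested genes of this list (Aoc2, Aoc3, Maoa, Maob, Smox and Paox), 0 were called higher and 2 lower, with a median log2 fold change of -0.49 beside -0.12 over all tested genes. Aoc3, a copper amine oxidase of smooth muscle and endothelium, had means of 130 ± 30.8 and 85.4 ± 16.7 FPKM and fell by 0.59 on the log2 scale (SE 0.16, limma adjusted p = 0.00897). Paox, a polyamine oxidase, fell by 0.42 (SE 0.10, limma adjusted p = 0.00492). Both calls were lost with a macrophage marker score in the model (-0.37 and -0.28, limma adjusted p of 0.170 and 0.109), and that of Aoc3 also with quantile normalization (-0.38, limma adjusted p = 0.104).

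Most substrate genes rose. Of 10 tested genes for elastin and fibrillar collagen chains, 7 were called higher and 0 lower, with a median of 1.23. Over all tested genes 9.54% were called higher and 24.9% lower. Col5a2, a chain of collagen V, rose by 2.13 (SE 0.21, limma adjusted p = 1.14e-06) from 124 to 523 FPKM. For collagen IV of basement membranes, 3 of 6 chains were called higher and 0 lower, with a median of 0.65. Col4a1 and Col4a2 rose by 1.16 and 1.13, and Col4a5 by 0.65. The Col4a5 call was lost in 12 of 28 alternatives, 7 of them with 1 library left out, and without Saline 7 and Saline 8 its value was 0.36 (limma adjusted p = 0.0871).

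Steps around the oxidases were mixed. Of 5 tested genes of propeptide processing, 2 were called higher and 0 lower, with a median of 0.15. The shares over all tested genes were 9.54% and 24.9%. Adamts2, which trims procollagen, rose by 1.02 (limma adjusted p = 0.000202) and Pcolce, an enhancer of Bmp1, by 0.65 (limma adjusted p = 0.0102), the latter at 0.62 and not called with the macrophage score (limma adjusted p = 0.0718). Bmp1, which cleaves the propeptide of Lox, stood at 115 ± 63.6 and 107 ± 20.9 FPKM with a log2 fold change of 0.02 (SE 0.23, limma adjusted p = 0.943). Among 10 scaffold proteins of elastic fibres and collagen matrix, 5 rose and 1 fell, with a median of 0.72. The 1 fall is a smaller share than the 24.9% of all tested genes. Postn (periostin) rose by 1.99, Fbn1 (fibrillin-1) by 1.55 and Fbln5 (fibulin-5) by 1.13. Ltbp4, which helps deposit elastin, fell by 1.08 (limma adjusted p = 0.00815), and was at -0.58 and not called with a macrophage marker score in the model (limma adjusted p = 0.191). Efemp2 (fibulin-4), which brings Lox to tropoelastin, stood at 171 ± 40.0 and 154 ± 27.5 FPKM (log2 fold change -0.14, limma adjusted p = 0.464).

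Copper supply showed 1 rise and 1 fall among 7 tested genes, with a median of -0.15, beside 9.54% and 24.9% of all tested genes, so these counts do not set the list apart. Slc31a1, the copper importer, lay between 2.82 and 4.48 FPKM in saline libraries and between 5.40 and 6.59 in Ang II libraries, without overlap (0.62 on the log2 scale with SE 0.10, limma adjusted p = 0.000287). Ccs, the copper chaperone of superoxide dismutase, fell by 0.64 (limma adjusted p = 0.00683), and was at -0.59 and not called with the macrophage score (limma adjusted p = 0.0615). Atp7a, the pump that loads copper into secreted enzymes, stood at 1.77 ± 1.36 and 3.02 ± 1.03 FPKM and did not pass (0.67 on the log2 scale with SE 0.31, limma adjusted p = 0.0971).

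Of 8 other cross-linking enzymes, 6 were called higher and 0 lower, with a median of 0.67. Of all tested genes, 9.54% were called higher and 24.9% lower. Plod2, a lysyl hydroxylase of collagen telopeptides, rose by 1.49 from 45.2 to 125 FPKM (limma adjusted p = 5.34e-06), and Pxdn (peroxidasin), which forms sulfilimine bonds in collagen IV, by 1.03. Tgm2 (transglutaminase 2), at 481 and 449 FPKM, did not pass (log2 fold change -0.11, limma adjusted p = 0.483). Among 14 regulators of the TGF-beta, hypoxia and Snail pathways, with which lysyl oxidase expression is commonly linked, 5 were called higher and 0 lower, with a median of 0.44, beside 9.54% of all tested genes called higher. The 5 became 3 without Ang II 1, Ang II 4 or Ang II 6, 3 with no filter or with the macrophage score, and 8 with median ratio scaling or quantile normalization. Tgfb2 rose by 1.31 (limma adjusted p = 0.000598), Hif1a by 0.81 (limma adjusted p = 0.000951) and Tgfbr1 by 0.51 (limma adjusted p = 0.00813), the last at 0.49 and not called with the macrophage score (limma adjusted p = 0.0602). Snai1 and Snai2 were called at 0.64 and 0.49, and both calls were lost without Saline 7 and Saline 8 (0.63 and 0.27, limma adjusted p of 0.0673 and 0.129). Leaving out 1 library ended the call of Snai1 in 8 of 16 fits and that of Snai2 in 9 of 16.

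**Figure D4:**
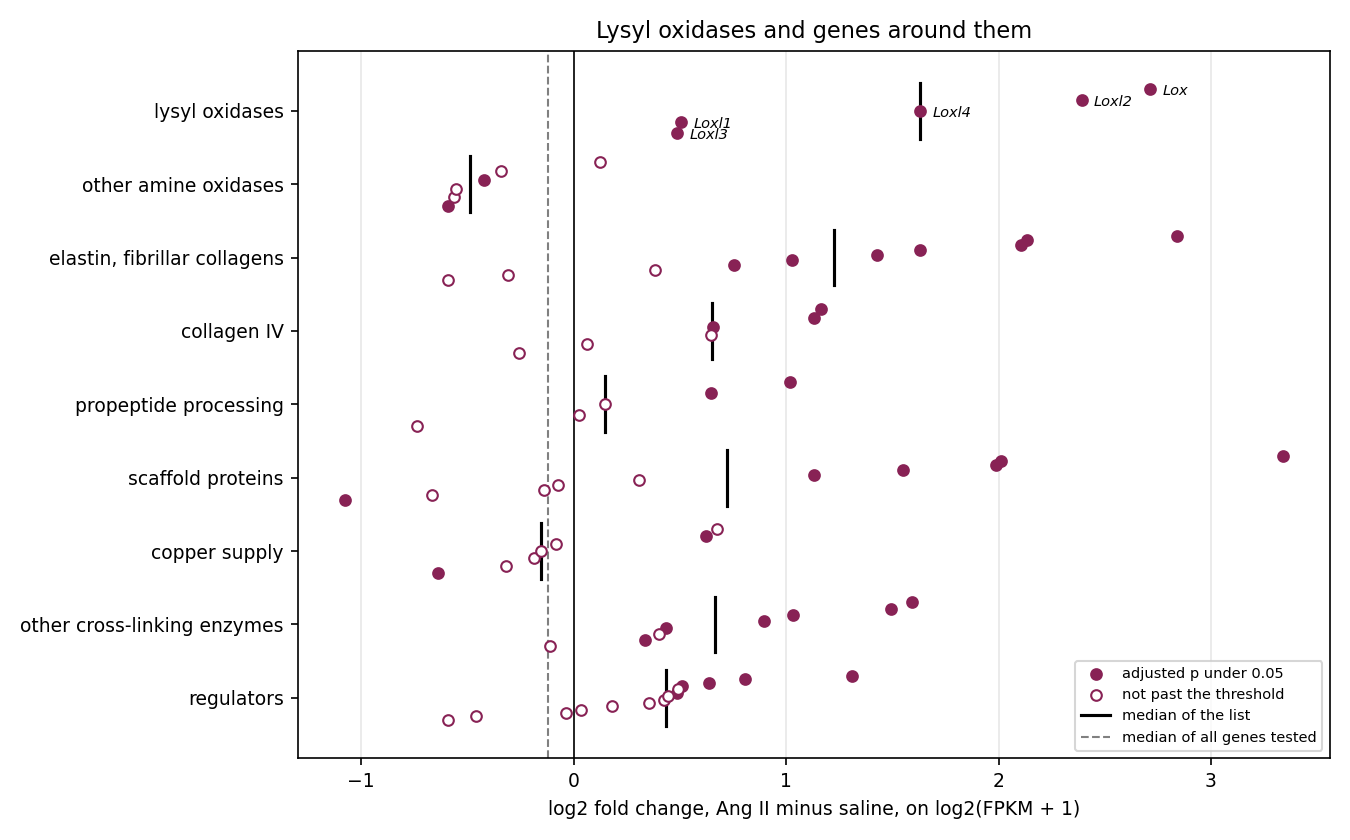
Log2 fold changes on log2(FPKM + 1), Ang II minus saline, of the tested genes of each list, one point per gene, filled for an adjusted p under 0.05, with the list median (black line) and the median of all tested genes (dashed line, -0.12). The 5 lysyl oxidases, elastin and most fibrillar collagens lie right of 0, and other amine oxidases mostly left.

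Some cell type markers moved as well, beside 9.54% of all tested genes called higher and 24.9% called lower. Their part in the lysyl oxidase results was not tested beyond the models with marker scores. Smooth muscle markers summed to 8795 to 15104 FPKM in saline and 6231 to 10603 in Ang II libraries, with 3 of 7 called lower (Myh11, Smtn and Lmod1). Macrophage and monocyte markers summed to 10.4 to 461 and 35.9 to 533 FPKM, with 4 of 8 called higher, and all 6 cycling markers were called higher (sums of 3.80 to 7.13 and 31.6 to 84.5). Fibroblast markers (1 of 8 called lower) summed to 73.5 to 224 and 64.1 to 229, and endothelial markers (1 of 6 called lower) to 413 to 1265 and 137 to 1126. Adipocyte markers (1 of 7 called lower) summed to 13.7 to 261 and 6.49 to 122, highest in Saline 8. The shares of fibroblast, endothelial and adipocyte markers called lower were below that of all tested genes, so these counts do not set those lists apart. Their median log2 fold changes were -0.08, 0.18 and -1.24, beside -0.12 over all tested genes. The median adipocyte sum was 95.5 FPKM in saline and 22.1 FPKM with Ang II, with overlapping ranges. With the macrophage score as a covariate the log2 fold changes were 2.66 for Lox, 0.77 for Loxl1, 2.40 for Loxl2, 0.66 for Loxl3 and 1.43 for Loxl4, all called. With the adipocyte score Lox was at 2.38, Loxl2 at 2.23, Loxl3 at 0.59 and Loxl4 at 1.40, all called. Every listed marker, including Lep, which was below the filter for testing, reached at least 0.1 FPKM in some library. Read totals behind the FPKM ran from 14606864 to 19988730 per library.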

How the data were processed

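Per the labels' protocols, Trizol was used to extract total RNA and a SMARTER kit to prepare mRNA libraries. The authors deposited a single table of FPKM per gene. Per the submitters' processing notes, the genome build was GRCm38 (mm10). The aligner, the counting tool and any use of strand were not given in the sources used here. Groups and replicate numbers were taken from sample titles. FPKM of most genes were multiples of a 1-read step once the mean transcript length was used, and in each library 95.8% to 96.3% of values were whole within 0.02 of a read. Reads were so recovered for 31230 of 31423 genes above 0, for 807 with another length, which for Lox was 4036 bases. FPKM carry no correction for library composition, so a few very abundant genes can lower the others. The median log2 fold change of all tested genes was -0.12, and whether composition accounts for it was not tested.

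Log2(FPKM + 1) values of genes averaging at least 0.5 FPKM were tested with limma 3.58.1 (R 4.3.3, trend = TRUE), two-sided, adjusted by Benjamini-Hochberg over 15007 genes with a threshold of 0.05. Fold changes on this scale understate low genes. Ratios, levels and correlations had exact permutation tests in Python 3.11.15 (scipy 1.17.1). Ratios were differences of log2(FPKM + 1). The scripts were tested on simulated data. The members and gene lists were chosen with earlier results of these data known, so list counts are descriptions. Named were the 5 members, Eln, Col1a1 and Col3a1, from each list up to 2 called genes in each direction with the smallest adjusted p (all where a list had 5 or fewer calls), and the 3 genes most like each member. Bmp1, Efemp2, Fbln5, Atp7a and Tgm2 were named for their role after their values were seen. Codons were read from GENCODE M21 transcripts on GRCm38. Alternatives covered the pseudocount, the low-value filter, scaling, a replicate block, sample weights, marker scores and left-out libraries. Counts on recovered reads and leaving out Saline 2, 7 and 8 together were added after seeing the data. Sequence is not printed for Lox.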

Additional observations from a re-analysis of the deposited data

Results flagged for a closer look

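In 62 groups of 8 values (the members' FPKM, their sum and the log2 ratios), 9 held a highest or lowest library set off from its nearest neighbour by a gap past Dixon's 95% critical value. Chance gives about 1 in 20 groups where groups are independent. These groups share genes and libraries, so the count cannot be read against that share. In saline, Saline 8 was high in Loxl3, at 134 FPKM, low in the Loxl2 to Loxl3 ratio (-5.03), where its Loxl2 was also the lowest of all libraries at 3.12 FPKM, and high in the Loxl3 to Col3a1 ratio (-1.77). Saline 4 was low in the Loxl1 to Eln ratio (-5.03). With Ang II, replicate 2 was low in the Lox to Loxl1 ratio (-0.68). Replicate 6 was high in Loxl1 to Loxl2 (2.76), low in Loxl2 to Loxl3 (-2.13), low in Loxl1 to Col1a1 (-4.02) and low in Loxl2 to Col1a1 (-6.79).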

How the results depend on the processing

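Lox, Loxl2 and Loxl4 stayed called higher under each of 28 alternatives, at 2.38 to 2.88, 2.20 to 2.56 and 1.18 to 2.14 on the log2 scale. Loxl1 (0.43 to 0.77) lost its call with the adipocyte score (0.45). Loxl3 lost it in 10 alternatives: with no filter (0.49, adjusted p = 0.0752) and in 9 of 16 leave-one-out fits (0.42 to 0.63 over all 16). With each library scaled by its median ratio the median change of all genes was -0.0056 and the family's log2 values were 2.85, 0.65, 2.52, 0.63 and 1.75 in gene order. Over all genes, 1431 were called higher and 3741 lower. These were 2235 and 2113 with median ratio scaling, 2270 and 2374 with quantile normalization, 947 and 2417 with the adipocyte score, and 701 and 1769 with the macrophage score. The 8 pathway lists beside the family held 6, 10, 6, 5, 10, 7, 8 and 14 tested genes. Of these genes, 29 were called higher and 4 lower, beside 9.54% and 24.9% of all tested genes. The 4 became 10 with sample weights and 2 with the macrophage score. They became 9 without Saline 7 and 8, 8 without Saline 2, 7 and 8, and 4 to 8 leaving out 1 library. Within lists, leaving out 1 library gave 1 to 2 copper genes higher, 1 to 2 copper and 1 to 2 scaffold genes lower, and 0 to 1 collagen IV and 0 to 1 propeptide genes lower. Deviations from the group mean in libraries of the same replicate number had correlations of -0.25 to 0.39, above 0.1 in 5 of 8 pairs. Of the saline libraries, 2 correlated best with the Ang II library of their own number. Macrophage marker sums were highest in replicate 1 of both groups (461 and 533 FPKM). Replicate 2 (201 and 268 FPKM) and replicate 3 (65.8 and 247 FPKM) came next in both. The lowest was replicate 8 in saline (10.4 FPKM) and replicate 5 with Ang II (35.9 FPKM). A shared order by number was not tested. These values do not settle whether the numbers mark pairs. With the replicate block Lox was at 2.71 (adjusted p = 2.69e-05), Loxl1 at 0.50 (0.0168), Loxl2 at 2.39 (2.69e-05), Loxl3 at 0.49 (0.0410) and Loxl4 at 1.63 (0.000551), and 1414 genes were called higher and 3531 lower. Among named genes the block ended the call of Snai1 (0.64, adjusted p = 0.0768). Among ratios, a pseudocount of 0.1 gave 0.66 for Lox to Loxl4, 0.44 for Loxl2 to Loxl4, -0.73 for Loxl4 to Eln and 0.00032 for Loxl4 to Col1a1. The last was -0.83 without Saline 7 and 8 and -0.98 without Saline 2, 7 and 8. Loxl1 to Loxl3, near 0, was -0.016 and -0.17 in these 2 settings and -0.10 to 0.10 leaving out 1 library. Without Saline 2, 7 and 8 Loxl3 to Loxl4 was -0.43 and Loxl4 to Col3a1 -0.16. Leaving out 1 library gave 0.22 to 0.40 for Lox to Loxl2 and 0.46 to 0.76 for Lox to Col1a1. Where no value is given for why a call moved, the cause was not tested. Read depth limits Loxl4 most, with 17 to 149 reads per saline library.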
